A study of Mus musculus with 21 samples.

Results

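Nestin-EGFP positive cells sorted from the dentate gyrus of control mice were compared between 12 weeks of age and postnatal day 5 (P5). All libraries of these 2 groups were taken, so 6 of the 21 libraries of the series entered the comparison, 3 at each age. The mice were C57BL/6 animals of the Nestin-EGFP genotype. Their dams had been given methylcellulose by mouth on embryonic days 12, 13 and 14, as the control for the valproic acid (VPA) that other dams received. GFP-positive cells were collected by fluorescence sorting, and polyadenylated RNA was sequenced. The labels name no promoter fragment for the reporter and do not say whether replicates were animals, litters or pools. The p-values therefore measure the spread among these libraries, which may be technical in part. Where VPA libraries are set beside the controls, they are the 3 VPA libraries of each age from the same genotype and tissue, whose dams received VPA at 300 mg/kg per day on the same days.

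Nestin is an intermediate filament protein of neural stem and progenitor cells. In the dentate gyrus, radial glia-like stem cells carry it, share many genes with astrocytes, and give rise through proliferating intermediate progenitors to granule neurons. In the first postnatal week the dentate gyrus is still being built by many dividing progenitors, while in the adult a small pool, mostly quiescent, remains in the subgranular zone. Nestin is also known from pericytes, some endothelial cells and some oligodendrocyte precursors.

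Values are FPKM, a read density scaled to transcript length and library size, and every fold change is a difference of log2(FPKM + 1), 12 weeks minus P5, given with its standard error. Because 1 is added before the logarithm, the change of genes of low level is understated. Of the gene symbols in the tables, 24322 in number, 13475 had at least 1 FPKM in at least 3 of the 6 libraries and were tested with limma. At a Benjamini-Hochberg adjusted p under 0.05, 1192 genes rose (8.85% of those tested) and 741 fell (5.5%), so that 14.3% were called. These shares are the background for the counts of called genes in every list below. For counts in the VPA libraries the background is 10.8% rises and 8.28% falls. The median over all tested genes was -0.043. Fold changes were below 0 for 53.9% of tested genes, which is the background for counts of fold changes by sign. The values of the ages did not overlap for 38.5% of tested genes, which is the background for the remarks on overlap below. Among the calls, 818 rises and 311 falls exceeded a log2 fold change of 1 in size. Of the 278 tested genes that reached 1 FPKM in the 3 adult libraries and in none at P5, 218 rose, and of the 165 with the opposite pattern 122 fell. Such genes passed the filter through the group in which they were high.

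The adult libraries were less alike than those of P5. Over tested genes, the SD among the 3 replicates had a median of 0.328 log2 units at 12 weeks and 0.0914 at P5. Correlations of log2 values were 0.983 to 0.987 among P5 libraries and 0.842 to 0.882 among adult libraries. Adult libraries listed 13529 to 15210 genes above 0, against 17297 to 17503 at P5, and the sequencing depth is unknown. Age and any difference in how the libraries of each age were made cannot be told apart. The numbers of calls rested on the even P5 libraries: with any 1 of them left out, 411 to 418 genes rose and 55 to 73 fell. Without adult replicate 1, 1563 rose and 1534 fell. Without adult replicate 2, 1188 fell. Over all 41 lists drawn up, not all of them given below, 39 counts by direction were of 1 to 4 called genes. Of these counts, 37 moved by over 1.5 times without some single library, so counts that small are descriptions of these 6 libraries. Calls of named genes that were lost without a single library are marked as such. P5 replicates 1 and 2 had Xist, the RNA that silences an X chromosome in female cells, at 317 and 308 FPKM and the Y-linked Ddx3y at 0 and 0.0129 FPKM, whereas P5 replicate 3 had Xist at 2.65 FPKM and Ddx3y at 22 FPKM. The P5 libraries were therefore not all repeats of 1 source. Each of the 3 adult libraries held both transcripts, so the ages also differed in make-up by sex, and its part was not tested.

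The labels call the sorted cells neural stem and progenitor cells, and genes that define such cells were present at both ages. Nes itself was measured at 13.1, 13.4 and 11.5 FPKM at P5 and 10.6, 15.5 and 18.7 FPKM at 12 weeks. The ages overlapped, and its log2 fold change was 0.19 ± 0.22 (adjusted p = 0.599). Hopx, a homeodomain protein of dentate stem cells, was measured at 149, 121 and 115 FPKM at P5 and 78.8, 239 and 146 FPKM at 12 weeks, a difference of 0.13 ± 0.37 (adjusted p = 0.839). The progenitor transcription factors Sox2 (log2 fold change 0.061) and Emx2 (-0.093) did not pass the test either, with adjusted p of 0.857 and 0.611. Of 18 listed stem and radial glia genes, all were tested, none rose, 2 fell and 16 did not pass, with a median of -0.15. Without adult replicate 2 the number that fell was 7, and without adult replicate 3 it was 4. The list summed to 3140, 2915 and 2755 FPKM at P5 and 968, 1910 and 1414 FPKM at 12 weeks. Of these sums, Fabp7 alone held 1982, 1791 and 1706 FPKM at P5 and 284, 639 and 356 FPKM at 12 weeks. A sum without Fabp7 was not tested. In the VPA libraries 8 of 18 fell between the ages and none rose, with a median of -0.69. None of the list passed the test of the difference between control and VPA. In control, Cxcr4, a chemokine receptor of dentate progenitors, was measured at 67.4, 53.2 and 54.2 FPKM at P5 and 58.2, 45.7 and 36.9 FPKM at 12 weeks. Its log2 fold change was -0.32 ± 0.19 (adjusted p = 0.303). In the VPA libraries it changed by -1.39 ± 0.26 (limma, adjusted p = 0.0131). The test of the difference between control and VPA did not pass for it (adjusted p = 0.201).

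The 2 stem and radial glia genes that fell in control were Fabp7 and Gfap. Fabp7, the brain fatty acid-binding protein of radial glia, was measured at 1982, 1791 and 1706 FPKM at P5 and 284, 639 and 356 FPKM at 12 weeks. Every adult library was below every P5 library, and the log2 fold change was -2.18 ± 0.3 (adjusted p = 0.00541). Fabp7 lies at chr10:57784881-57788450 (GRCm38, GENCODE vM21). Gfap, the intermediate filament of astrocytes and of radial glia-like stem cells, was measured at 96.5, 102 and 92.6 FPKM at P5 and 45, 47.1 and 48.3 FPKM at 12 weeks. It was close to even within each age and changed by -1.04 ± 0.09 (adjusted p = 0.000969). Vim, another filament gene of the same cells, was measured at 207, 202 and 204 FPKM at P5 and 75.8, 142 and 129 FPKM at 12 weeks and had a log2 fold change of -0.87 ± 0.23 (adjusted p = 0.0511).

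Genes shared by astrocytes and stem cells moved in opposite directions. Of 18 listed astrocyte genes, all tested, 5 rose, 6 fell and 7 did not pass, with a median of -0.055. Without any 1 P5 library 3 fell, and without P5 replicate 3 3 rose. Aqp4, the water channel of astrocyte endfeet, was measured at 44.5, 46.7 and 41.6 FPKM at P5 and 7.29, 7.77 and 7.81 FPKM at 12 weeks. It had the smallest adjusted p of the list, with a log2 fold change of -2.39 ± 0.11 (adjusted p = 0.000111). The sodium bicarbonate cotransporter gene Slc4a4 was measured at 30.8, 33 and 25.7 FPKM at P5 and 9.54, 8.45 and 12.8 FPKM at 12 weeks, a change of -1.46 ± 0.18 (adjusted p = 0.00411). Sox9, a transcription factor of glia and stem cells, was measured at 42.5, 43.3 and 37.1 FPKM at P5 and 23, 20.8 and 20 FPKM at 12 weeks, a change of -0.91 ± 0.12 (adjusted p = 0.0042). Aldh1l1, a folate enzyme widely used as an astrocyte marker, had a log2 fold change of -1.95 ± 0.39 (adjusted p = 0.0215), and this call was lost without any 1 P5 library and without adult replicate 3.

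On the other side, Gjb6, which encodes the astrocyte gap junction protein connexin 30, was measured at 0.36, 0.39 and 0.513 FPKM at P5 and 17.3, 15.6 and 12.6 FPKM at 12 weeks. It was below 1 FPKM in all P5 libraries and changed by 3.5 ± 0.2 (adjusted p = 0.000224). S100b, a calcium-binding protein of astrocytes and of oligodendrocyte lineage cells, was measured at 9.24, 9.67 and 9.12 FPKM at P5 and 47.4, 79.1 and 59.9 FPKM at 12 weeks, a change of 2.58 ± 0.19 (adjusted p = 0.000546). The neurotensin receptor gene Ntsr2 was measured at 27.6, 26.8 and 19.5 FPKM at P5 and 85.1, 132 and 111 FPKM at 12 weeks, a change of 2.1 ± 0.2 (adjusted p = 0.00142). For each of the 3, every adult library was above every P5 library.

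**Figure D1:**
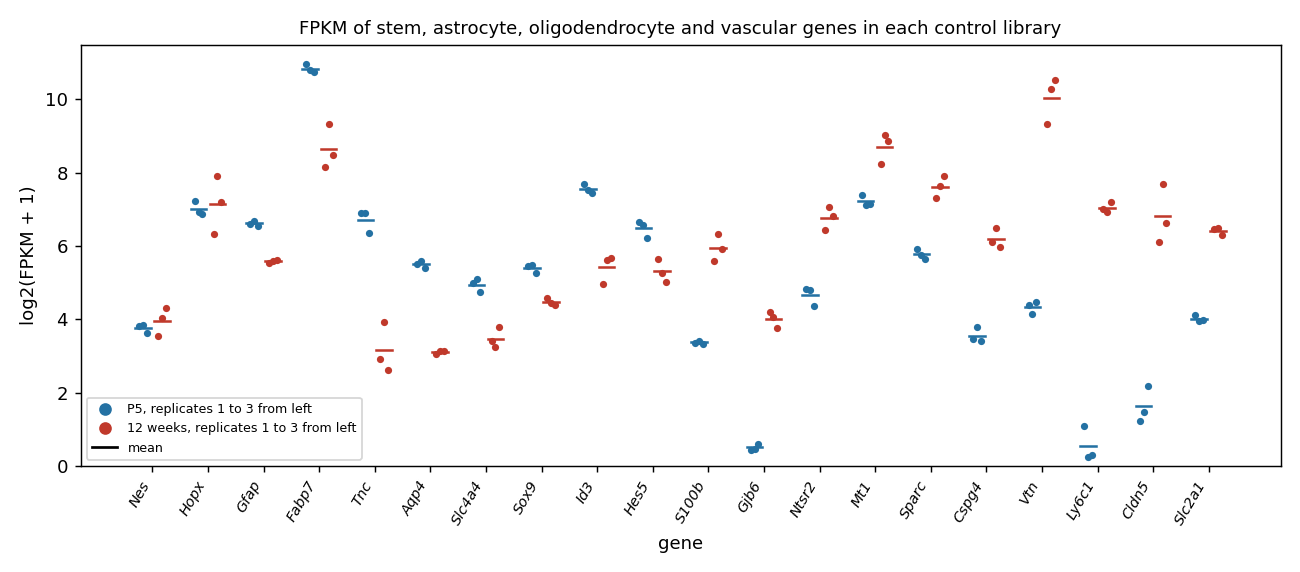
Log2(FPKM + 1) of 20 genes in each of the 6 control libraries, blue for P5 and red for 12 weeks, with replicates 1 to 3 from left to right and a bar at the mean. Nes and Hopx overlap between the ages, Fabp7, Tnc, Aqp4 and Id3 are lower in every adult library, and Gjb6, Vtn, Ly6c1 and Cldn5 are higher in every adult library.

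Among 18 genes linked to quiescent stem cells, 6 rose, 2 fell and 10 did not pass, with a median of 0.6. The number that rose was 11 without adult replicate 1, 4 without adult replicate 2, 2 without adult replicate 3, and 2 or 3 without 1 P5 library. The metallothionein gene Mt1, a metal-binding protein, was measured at 167, 137 and 139.9 FPKM at P5 and 298, 522 and 466 FPKM at 12 weeks, a change of 1.49 ± 0.22 (adjusted p = 0.00741). Sparc, a secreted matrix-binding glycoprotein, was measured at 59.8, 53.4 and 49.2 FPKM at P5 and 158, 198 and 238 FPKM at 12 weeks, a change of 1.84 ± 0.17 (adjusted p = 0.00111). Sparc is also made by vascular cells. Clu, the extracellular chaperone clusterin, rose by 1.5 ± 0.28 (adjusted p = 0.0173), a call lost without any 1 P5 library and without adult replicate 3. In the opposite direction, Id3, an inhibitor of basic helix-loop-helix factors and a target of BMP signalling, was measured at 204, 184 and 173 FPKM at P5 and 30.4, 48.3 and 49.9 FPKM at 12 weeks. Its log2 fold change was -2.13 ± 0.2 (adjusted p = 0.00126).

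Some transcripts of the neurogenic lineage were lower in adults. Of 13 listed intermediate progenitor genes, all tested, 1 rose, 2 fell and 10 did not pass. Eomes, which encodes the progenitor factor Tbr2, was measured at 88.7, 80.8 and 92.7 FPKM at P5 and 105, 106 and 112 FPKM at 12 weeks, with a log2 fold change of 0.3 ± 0.095 (adjusted p = 0.0874). The neuropeptide gene Tac2 was measured at 276, 233 and 226 FPKM at P5 and 104, 146 and 104 FPKM at 12 weeks, a change of -1.06 ± 0.16 (adjusted p = 0.00916) that was lost without P5 replicate 1. The matrix gene Mfap4 changed by -0.99 ± 0.15 (adjusted p = 0.00881), lost without P5 replicate 1 or 3. Elavl4, a neuronal RNA-binding protein, rose by 0.73 ± 0.13 (adjusted p = 0.0158), lost without any 1 P5 library. The number of intermediate progenitor genes that fell was 4 without adult replicate 1, and 0, 2 and 1 without P5 replicates 1, 2 and 3.

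Among 20 newborn granule neuron genes, all tested, 7 fell, 1 rose and 12 did not pass, and 17 of 20 fold changes were below 0, with a median of -0.3. Dcx, the microtubule protein doublecortin of immature neurons, was measured at 157, 152 and 158 FPKM at P5 and 119, 98.9 and 101 FPKM at 12 weeks. The ages did not overlap, and the change was -0.55 ± 0.1 (adjusted p = 0.0178). Neurod6, a transcription factor of immature pyramidal and granule neurons, was measured at 56.8, 60 and 66.8 FPKM at P5 and 22.8, 17.8 and 31.3 FPKM at 12 weeks, a change of -1.35 ± 0.2 (adjusted p = 0.00811) that was lost without P5 replicate 3. The cell adhesion gene Ncam1 was measured at 66.8, 67.7 and 70.1 FPKM at P5 and 99.7, 108 and 88.2 FPKM at 12 weeks and rose by 0.52 ± 0.1 (adjusted p = 0.0213). The calls of Dcx and Ncam1 were lost without any 1 P5 library, and without 1 P5 library 0 or 1 of the 20 genes fell. None of 13 tested mature neuron genes rose and 1 fell.

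Transcripts of oligodendrocyte precursors and of myelinating cells were higher in adults. Of 11 listed precursor genes, 10 rose, none fell and 1 did not pass, against 8.85% of all tested genes, and the median was 1.65. Between 8 and 10 rose with 1 library left out. Cspg4, which encodes the NG2 proteoglycan of precursors and of pericytes, was measured at 10.1, 12.8 and 9.54 FPKM at P5 and 68.2, 88.2 and 62.1 FPKM at 12 weeks, a change of 2.64 ± 0.17 (adjusted p = 0.000355). Pdgfra, the growth factor receptor of these precursors, was measured at 39.6, 55.1 and 42 FPKM at P5 and 149.5, 188 and 124 FPKM at 12 weeks, a change of 1.73 ± 0.19 (adjusted p = 0.00247). For both genes adult replicate 2 was the highest library. Gpr17, a receptor of precursors about to differentiate, changed by 2.2 ± 0.22 (adjusted p = 0.00168), and the sialidase gene Neu4 was measured at 1.93, 3.5 and 2.41 FPKM at P5 and 60.8, 55.4 and 41.1 FPKM at 12 weeks, a change of 3.89 ± 0.23 (adjusted p = 0.000224).

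Of 13 myelinating oligodendrocyte genes, 10 were tested, 8 rose and 2 did not pass, with a median of 1.67. The count was 5 without P5 replicate 1 and 6 or 7 without any other library. Mobp, a myelin protein, was measured at 0.185, 0.095 and 0.213 FPKM at P5 and 17.7, 0 and 15.6 FPKM at 12 weeks and was not tested. Gjc3, which encodes a connexin of oligodendrocytes and was among the 15 largest rises, was measured at 1.34, 2.55 and 1.46 FPKM at P5 and 65, 64.9 and 53.7 FPKM at 12 weeks, a change of 4.5 ± 0.2 (adjusted p = 8.02e-05).

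The highest list medians were those of vascular genes. Of 15 listed endothelial genes, all tested, 14 rose, and of 13 pericyte and mural cell genes all 13 rose, with medians of 3.5 and 2.75. Summed over the endothelial list, the libraries held 33, 29.4 and 34.4 FPKM at P5 and 502, 837 and 589 FPKM at 12 weeks. Summed over the pericyte and mural list they held 171, 149 and 159 FPKM at P5 and 1282, 2212 and 2732 FPKM at 12 weeks. No adult library overlapped a P5 library in either sum. In libraries of sorted bulk cells, fewer cells of a type and less RNA per cell cannot be told apart. Among 15 endothelial genes, 5 or 6 were called without 1 adult library, because genes below 1 FPKM at P5 then no longer reached 3 libraries, and 12 without 1 P5 library. Without 1 library, 12 or 13 pericyte genes rose. In the VPA libraries, which share no library with the controls, 11 of the 15 endothelial genes were tested and all 11 rose, and 8 of 13 pericyte genes rose. In both comparisons, a gene below 1 FPKM in all P5 libraries was tested only if all adult libraries reached 1 FPKM. For such genes the filter set the direction, so the counts of endothelial rises are no separate support.

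**Figure D2:**
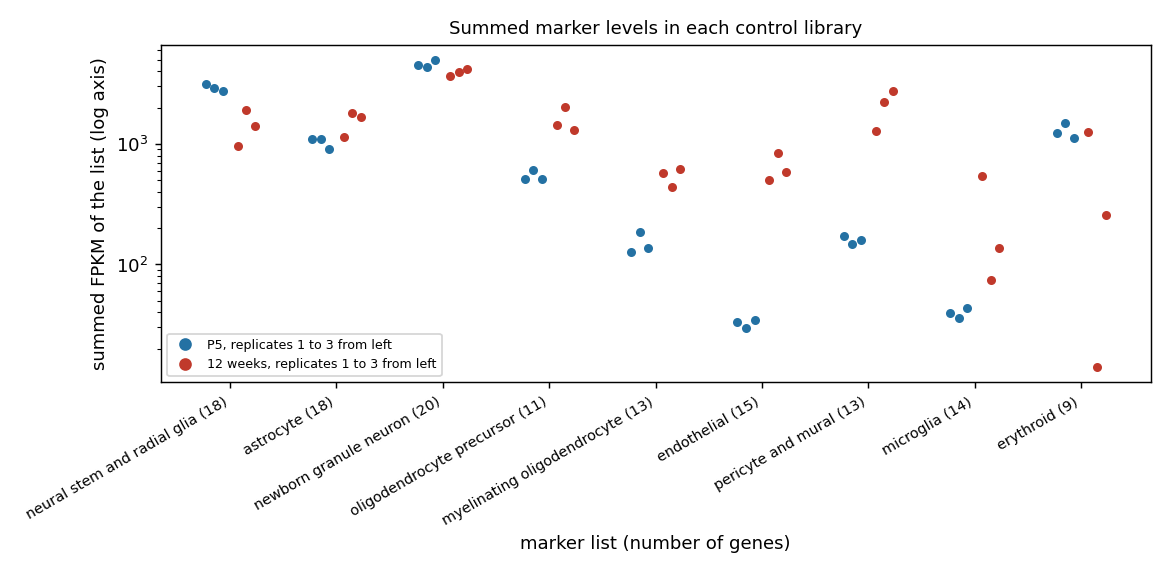
Summed FPKM of 9 marker lists in each control library on a log axis, blue for P5 and red for 12 weeks, replicates 1 to 3 from left to right. Endothelial, pericyte and oligodendrocyte sums are higher in all adult libraries, while microglial and erythroid sums differ most among the adult libraries themselves.

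Ly6c1, an endothelial surface protein in brain, was measured at 1.12, 0.176 and 0.232 FPKM at P5 and 128, 121 and 146 FPKM at 12 weeks. Its log2 fold change of 6.51 ± 0.25 (adjusted p = 4.58e-05) was the largest rise under the rule for named genes, and it lies at chr15:75044018-75048830. The neighbouring family member Ly6a was measured at 0, 0.0757 and 0 FPKM at P5 and 74.5, 97.5 and 91.7 FPKM at 12 weeks, a change of 6.43 ± 0.17 (adjusted p = 1.02e-05). Reads of Ly6c1 and its close copy Ly6c2 may have been split between them. Cldn5, the tight junction protein of the blood-brain barrier, was measured at 1.34, 1.79 and 3.5 FPKM at P5 and 68.1, 205 and 97.4 FPKM at 12 weeks. Adult replicate 2 was the highest, and the change was 5.18 ± 0.43 (adjusted p = 0.000841). Slc2a1, the glucose transporter of that barrier, was measured at 16.4, 14.4 and 14.8 FPKM at P5 and 87.4, 88.7 and 78.1 FPKM at 12 weeks, a change of 2.41 ± 0.11 (adjusted p = 7.96e-05). Slco1a4, an organic anion transporter, changed by 4.67 ± 0.33 (adjusted p = 0.000442), and Pecam1, the endothelial adhesion molecule CD31, changed by 3.13 ± 0.25 (adjusted p = 0.00076).

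Vtn, which encodes vitronectin and in brain is a pericyte transcript, was measured at 20.1, 16.6 and 21.1 FPKM at P5 and 636, 1247 and 1476 FPKM at 12 weeks. Its means were 19.3 ± 2.38 FPKM at P5 and 1120.0 ± 434 FPKM at 12 weeks (mean ± SD, n = 3 each), and the change was 5.71 ± 0.31 (adjusted p = 0.000176). The gene lies at chr11:78499091-78502324. Pdgfrb, the receptor through which pericytes are recruited, was measured at 9.12, 8.63 and 8.56 FPKM at P5 and 44.9, 66.2 and 93.5 FPKM at 12 weeks, a change of 2.76 ± 0.25 (adjusted p = 0.00118). Rgs5, a regulator of G protein signalling in pericytes, was measured at 65.8, 54.8 and 56.8 FPKM at P5 and 179, 298 and 386 FPKM at 12 weeks and was already above 50 FPKM in all P5 libraries, with a change of 2.2 ± 0.27 (adjusted p = 0.00372). Higd1b and Ndufa4l2 changed by 3.68 ± 0.34 (adjusted p = 0.00128) and 3.22 ± 0.18 (adjusted p = 0.000177). Other large rises under the rule were the carbonic anhydrase gene Car4 (5.09), the nucleotide-sugar receptor gene P2ry14 (5.22), the proline transporter gene Slc6a20a (4.59), the extracellular superoxide dismutase gene Sod3 (4.57), the matrix protein gene Mgp (4.51) and the lipid transfer gene Pltp (4.56), all log2 fold changes.

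Most tested fibroblast genes also rose in control. Of 13 listed meningeal and perivascular fibroblast genes, 11 were tested, 9 rose and 2 did not pass, with a median of 1.57, against 8.85% rises among all tested genes. Pdgfra is on this list as well as on that of oligodendrocyte precursors. The collagen gene Col1a1 was listed at 0.448, 0.838 and 0.911 FPKM at P5 and 1.12, 0.704 and 3.97 FPKM at 12 weeks and was not tested. Without 1 P5 library 3 or 4 rose. Ptgds, the prostaglandin D2 synthase of meninges and oligodendrocytes, was measured at 2.98, 5.02 and 2.18 FPKM at P5 and 156, 119.7 and 249 FPKM at 12 weeks, a change of 5.31 ± 0.33 (adjusted p = 0.00026). Dcn, the collagen-binding proteoglycan decorin, changed by 2.55 ± 0.56 (adjusted p = 0.0292), a call lost without any 1 P5 library and without adult replicate 3. In the VPA libraries 3 of 11 fibroblast genes rose between the ages and 1 fell, with a median of 0.65. Dcn changed there by -0.022 ± 0.35 (adjusted p = 0.974). None of the list passed the test of the difference between control and VPA.

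Microglial genes had a higher summed level in every adult library than in any P5 library, while erythroid genes differed widely among the adult libraries. Of 14 microglial genes, 12 were tested, all 12 fold changes were above 0 with a median of 2.05, and 2 rose, the protease gene Ctss among them, each lost without any 1 P5 library. Without adult replicate 2, 8 rose, and without adult replicate 1, 4 rose. In the VPA libraries 5 of 11 rose between the ages. Their summed level was 39.5, 35.9 and 43.5 FPKM at P5 and 544, 73.6 and 136 FPKM at 12 weeks, so that adult replicate 1 stood above the others of its age. Cx3cr1, the fractalkine receptor of microglia, was measured at 1.27, 1.25 and 1.29 FPKM at P5 and 27.7, 3.84 and 6.64 FPKM at 12 weeks, a difference of 2.17 ± 0.62 (adjusted p = 0.0644). The 9 erythroid genes in the tables summed to 1221, 1479 and 1122 FPKM at P5 and 1250.0, 14.1 and 259 FPKM at 12 weeks, and none of 6 tested was called by limma, with 3 at an unadjusted p under 0.05. Hba-a1 was listed at 425, 608 and 459 FPKM at P5 and 458, 0 and 162 FPKM at 12 weeks. Aif1, the microglial protein Iba1, was listed at 0.891, 0.848 and 0.167 FPKM at P5 and 6.32, 0 and 0 FPKM at 12 weeks and was not tested. Of 10 macrophage genes other than microglial ones, 2 reached the filter and neither was called, nor was either at an unadjusted p under 0.05. The part of the vascular, oligodendrocyte and microglial transcripts in the other differences between the ages was not tested.

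**Figure D3:**
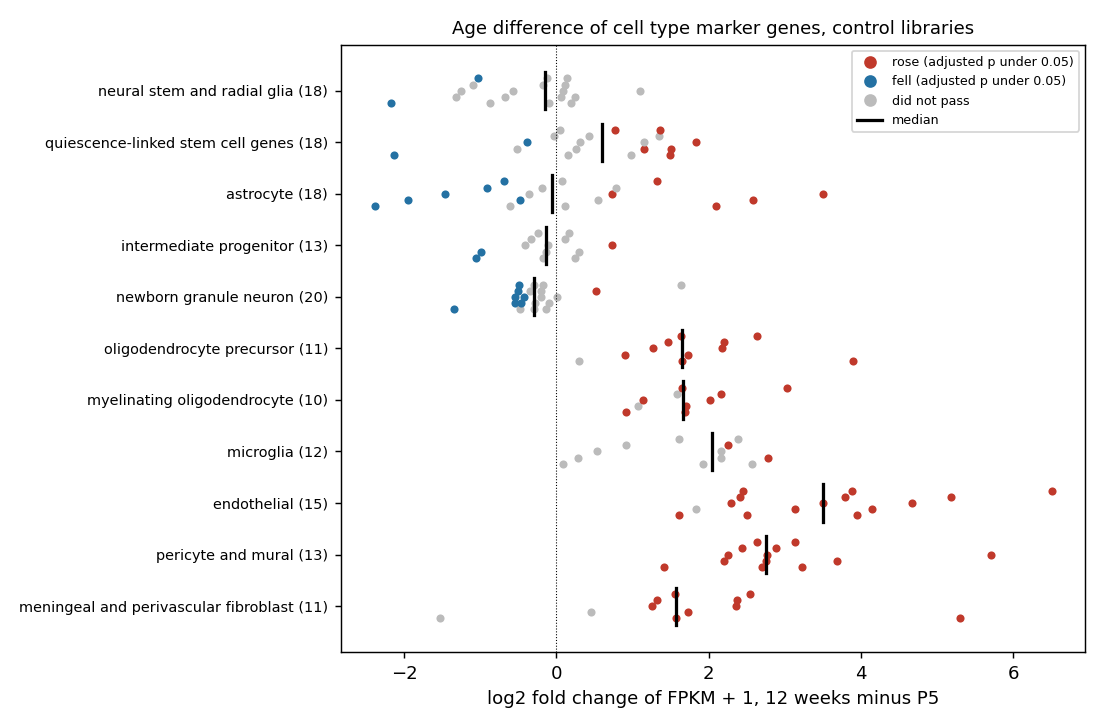
Log2 fold change, 12 weeks minus P5, of each tested member of 11 cell type lists, with red for genes that rose, blue for genes that fell, grey for those that did not pass and a black bar at the median. Endothelial and pericyte lists lie furthest to the right, with medians of 3.5 and 2.75, and the astrocyte list is split, with 5 rises and 6 falls.

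The genes with the largest falls were of other kinds. Tnc, the matrix protein tenascin C of radial glia and stem cell niches, was measured at 118, 118 and 80.9 FPKM at P5 and 6.55, 14.2 and 5.17 FPKM at 12 weeks. Adult values were lower in every library, a change of -3.56 ± 0.35 (adjusted p = 0.0015). Reln, the secreted guidance protein of Cajal-Retzius cells and interneurons, was measured at 24.6, 40 and 50.5 FPKM at P5 and 5.71, 0.92 and 0.602 FPKM at 12 weeks, with the P5 libraries themselves spread, and changed by -3.79 ± 0.57 (adjusted p = 0.00804). Lhx9, a LIM homeodomain factor, was measured at 41.8, 42.5 and 35.6 FPKM at P5 and 5.19, 1.88 and 3.05 FPKM at 12 weeks, a change of -3.29 ± 0.28 (adjusted p = 0.00093). Reln was also the only called gene of the 12 on the GABAergic neuron list, of which 8 were tested. All 8 fold changes were below 0, with a median of -0.96, but Reln was the only 1 of the 8 whose ages did not overlap. The list summed to 76.9, 87.4 and 139 FPKM at P5 and 60.5, 18.7 and 43.3 FPKM at 12 weeks. Reln, at the values given above, is part of these sums, and a sum without it was not tested. In the VPA libraries 7 members were tested and 1 fell, with a median of 0.58.

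Pla2g3, a secreted phospholipase, was measured at 21.3, 18.7 and 18.5 FPKM at P5 and 0.586, 0 and 0 FPKM at 12 weeks, a change of -4.13 ± 0.25 (adjusted p = 0.000237). Crabp1, a retinoic acid-binding protein, was at 12.8, 12.6 and 15.5 FPKM at P5 and listed at 0 in all adult libraries. Gdf10, a BMP family ligand, was measured at 21.1, 18.9 and 17.8 FPKM at P5 and 1.22, 0.97 and 3.98 FPKM at 12 weeks, a change of -2.86 ± 0.36 (adjusted p = 0.00414). Angptl4, a secreted inhibitor of lipoprotein lipase, was measured at 19.8, 21.2 and 18.5 FPKM at P5 and 3.01, 3.08 and 2.74 FPKM at 12 weeks and was even at both ages, with a change of -2.4 ± 0.15 (adjusted p = 0.000272). The remaining names under the rule, by log2 fold change, were Gpx3 (-2.98), Pdlim3 (-2.83), Cybrd1 (-2.7), Serpinf1 (-2.61), Gdpd2 (-2.51) and Nr4a3 (-2.2). The calls of Gpx3, Pdlim3, Serpinf1 and Gdpd2 were lost without any 1 P5 library, and that of Pdlim3 also without adult replicate 1.

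Mitotic genes were lower in adults, with fewer calls among genes of DNA replication. Of 26 G2 and mitosis genes, all tested, 9 fell, none rose and 17 did not pass, against 5.5% of all tested genes. All 26 fold changes were below 0, as were 53.9% of all tested genes, and the median was -0.89. Summed, the list held 365, 344 and 345 FPKM at P5 and 162, 236 and 166 FPKM at 12 weeks. The number that fell was 17 without adult replicate 2 and 1 without any 1 P5 library. Of 30 S phase and replication genes, 2 fell, none rose and 28 did not pass, with a median of -0.09, and 6 fell without adult replicate 2. In the VPA libraries 9 of 26 mitotic genes fell between the ages.

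Top2a, the topoisomerase that untangles chromosomes for division, was measured at 31.2, 31.7 and 26.9 FPKM at P5 and 13.8, 15.7 and 13.8 FPKM at 12 weeks. Its log2 fold change was -1.0 ± 0.13 (adjusted p = 0.00411). Mki67, the proliferation antigen Ki-67, was measured at 21.4, 23 and 18.8 FPKM at P5 and 9.62, 12.5 and 11.1 FPKM at 12 weeks, a change of -0.88 ± 0.15 (adjusted p = 0.0129), and Ccna2, cyclin A2, at 34, 30 and 33.9 FPKM at P5 and 16.5, 8.75 and 13 FPKM at 12 weeks, a change of -1.33 ± 0.22 (adjusted p = 0.0112). Ccnb2, cyclin B2, was measured at 21.4, 19.5 and 16 FPKM at P5 and 11.1, 9.24 and 6.13 FPKM at 12 weeks, a change of -1.05 ± 0.23 (adjusted p = 0.0284). The calls of Mki67, Ccna2 and Ccnb2 were lost without any 1 P5 library. Cdk1, the mitotic kinase, was measured at 11.8, 11.9 and 11.7 FPKM at P5 and 2.69, 13.5 and 4.45 FPKM at 12 weeks, with adult replicate 2 at the P5 level, and did not pass (adjusted p = 0.237).

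The promoters of mitotic genes often carry the cell cycle genes homology region, written TTTGAA, read on either strand. In windows of 300 bases around RefSeq gene starts (GRCm38.p6), 16 of 23 mitotic genes with a window held it, as did 7 of the 8 among them that fell. Of all 27025 genes with a window, 20.2% held it. The CCAAT box, which is also part of the stress element described further on, was in 17 of the 23 windows and in 41.1% of all. The bases before the start of 2 mitotic genes that fell are shown with the homology region in capitals and CCAAT left in lower case, for Top2a at chr11:99024190-99024439, minus strand and for Ccnb2 at chr9:70421555-70421804, minus strand.
Top2a: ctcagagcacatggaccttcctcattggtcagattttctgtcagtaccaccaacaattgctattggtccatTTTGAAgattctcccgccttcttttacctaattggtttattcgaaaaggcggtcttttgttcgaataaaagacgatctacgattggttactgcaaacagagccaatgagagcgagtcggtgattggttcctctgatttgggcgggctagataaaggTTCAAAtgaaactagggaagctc
Ccnb2: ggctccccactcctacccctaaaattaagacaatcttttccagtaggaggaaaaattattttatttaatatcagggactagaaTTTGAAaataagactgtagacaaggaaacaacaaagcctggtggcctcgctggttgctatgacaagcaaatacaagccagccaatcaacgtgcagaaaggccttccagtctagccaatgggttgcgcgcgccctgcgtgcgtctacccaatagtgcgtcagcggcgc
These 2 genes were chosen after their values were seen, and a match of letters does not show a site in use.

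Inhibitors of the cycle and one D cyclin were higher. Of 14 D cyclin and CDK inhibitor genes, 13 were tested, 4 rose, none fell and 9 did not pass. Cdkn1a, the CDK inhibitor p21, was measured at 1.48, 2.74 and 2.86 FPKM at P5 and 13.2, 22.6 and 13 FPKM at 12 weeks, a change of 2.35 ± 0.29 (adjusted p = 0.00386). Ccnd1, cyclin D1, was measured at 24.2, 26 and 22.4 FPKM at P5 and 53.8, 74.6 and 43.8 FPKM at 12 weeks, a change of 1.18 ± 0.2 (adjusted p = 0.0116), and Cdkn2c, the inhibitor p18, changed by 0.83 ± 0.14 (adjusted p = 0.0129). Both were lost without any 1 P5 library, after which 1 gene of the list was called. Ccnd2, the cyclin D2 of dentate progenitors, was measured at 74.5, 62 and 66.8 FPKM at P5 and 75.3, 64.2 and 59.4 FPKM at 12 weeks, a difference of -0.034 ± 0.13 (adjusted p = 0.883).

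In Notch signalling, which keeps stem cells undifferentiated, 17 of 18 genes were tested, 2 rose and 2 fell. Of all tested genes, 8.85% rose and 5.5% fell. The receptor Notch1 was measured at 43.6, 46.4 and 35.1 FPKM at P5 and 34, 35.8 and 36.8 FPKM at 12 weeks, a difference of -0.22 ± 0.13 (adjusted p = 0.32). Notch3, a receptor also made by mural cells, rose by 1.42 ± 0.26 (adjusted p = 0.0157), a call lost without any 1 P5 library. The Notch target Hes5 was measured at 98.9, 94.4 and 73.6 FPKM at P5 and 48.8, 37.2 and 31.6 FPKM at 12 weeks, a change of -1.17 ± 0.19 (adjusted p = 0.0103) that was lost without P5 replicate 1 or 2. Hey2, another target, also known from arteries, was measured at 3.64, 3.23 and 2.89 FPKM at P5 and 9.01, 15.7 and 11.8 FPKM at 12 weeks and rose by 1.6 ± 0.23 (adjusted p = 0.00703).

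In BMP and TGF-beta signalling, which favours quiescence in the adult dentate gyrus, 20 of 21 genes were tested, 6 fell, 1 rose and 13 did not pass, with a median of -0.4. Without adult replicate 2, 9 fell, and without any 1 P5 library 1 fell. The ligand Bmp4, also made by oligodendrocyte precursors, was measured at 4.99, 6.95 and 5.51 FPKM at P5 and 13.1, 20.5 and 20.5 FPKM at 12 weeks and rose by 1.47 ± 0.22 (adjusted p = 0.00862), a call lost without P5 replicate 1 or 3. The BMP antagonist Chrdl1 was measured at 5.23, 5.39 and 4.82 FPKM at P5 and 0.43, 0.128 and 0.857 FPKM at 12 weeks, a change of -2.09 ± 0.26 (adjusted p = 0.00378). The ligand Tgfb2 was measured at 36.2, 35.8 and 40.3 FPKM at P5 and 13.5, 22.8 and 15.4 FPKM at 12 weeks, a change of -1.11 ± 0.2 (adjusted p = 0.0143) lost without any 1 P5 library. Id1, a BMP target like Id3, changed by -0.96 ± 0.2 (adjusted p = 0.0234), lost without any 1 P5 library and without adult replicate 3.

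In Hedgehog signalling, a mitogenic pathway of dentate progenitors, 11 of 13 genes were tested, 3 fell and all 11 fold changes were below 0, with a median of -0.63. The signal transducer Smo was measured at 25.5, 24.9 and 24.7 FPKM at P5 and 14.7, 17.5 and 11.9 FPKM at 12 weeks, a change of -0.74 ± 0.16 (adjusted p = 0.0253). The coreceptors Gas1 and Cdon changed by -0.77 ± 0.14 (adjusted p = 0.0155) and -0.64 ± 0.13 (adjusted p = 0.0245). All 3 calls were lost without any 1 P5 library, and 5 genes fell without adult replicate 2. Gli1, a transcription factor and target of the pathway, was measured at 9.07, 7.99 and 7.1 FPKM at P5 and 5.99, 5.6 and 11.7 FPKM at 12 weeks, and Ptch1, its receptor, at 21.1, 23.3 and 17.9 FPKM at P5 and 20, 11.5 and 7.47 FPKM at 12 weeks, with log2 fold changes of -0.11 ± 0.28 (adjusted p = 0.829) and -0.73 ± 0.32 (adjusted p = 0.187). In Wnt signalling, 18 of 21 listed genes were tested, 2 rose and 2 fell, where 14.3% of all tested genes were called. The receptor Fzd1 was measured at 29.1, 26.8 and 26.7 FPKM at P5 and 12.3, 10.8 and 15.1 FPKM at 12 weeks, a change of -1.06 ± 0.15 (adjusted p = 0.00637) lost without P5 replicate 1, and the ligand Wnt5a at 18.6, 16.8 and 18 FPKM at P5 and 5.54, 1.65 and 4.52 FPKM at 12 weeks, a change of -2.04 ± 0.34 (adjusted p = 0.0116) lost without any 1 P5 library.

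Of 23 growth factor ligand and receptor genes, 21 were tested, 4 rose and 2 fell, against 8.85% and 5.5% of all tested genes. Ackr3, a scavenging receptor for the ligand of Cxcr4, was measured at 2.54, 4.08 and 4.18 FPKM at P5 and 28.7, 45.2 and 48.2 FPKM at 12 weeks, a change of 3.17 ± 0.25 (adjusted p = 0.00075). Egfr, the epidermal growth factor receptor of activated progenitors, was measured at 16.3, 18.4 and 13.3 FPKM at P5 and 3.98, 6.89 and 8.28 FPKM at 12 weeks, a change of -1.24 ± 0.26 (adjusted p = 0.0257), and Ntrk2, the receptor of brain-derived neurotrophic factor, rose by 0.88 ± 0.15 (adjusted p = 0.0127). The call of Egfr was lost without any 1 P5 library, and that of Ntrk2 without P5 replicate 1 or 3.

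**Figure D4:**
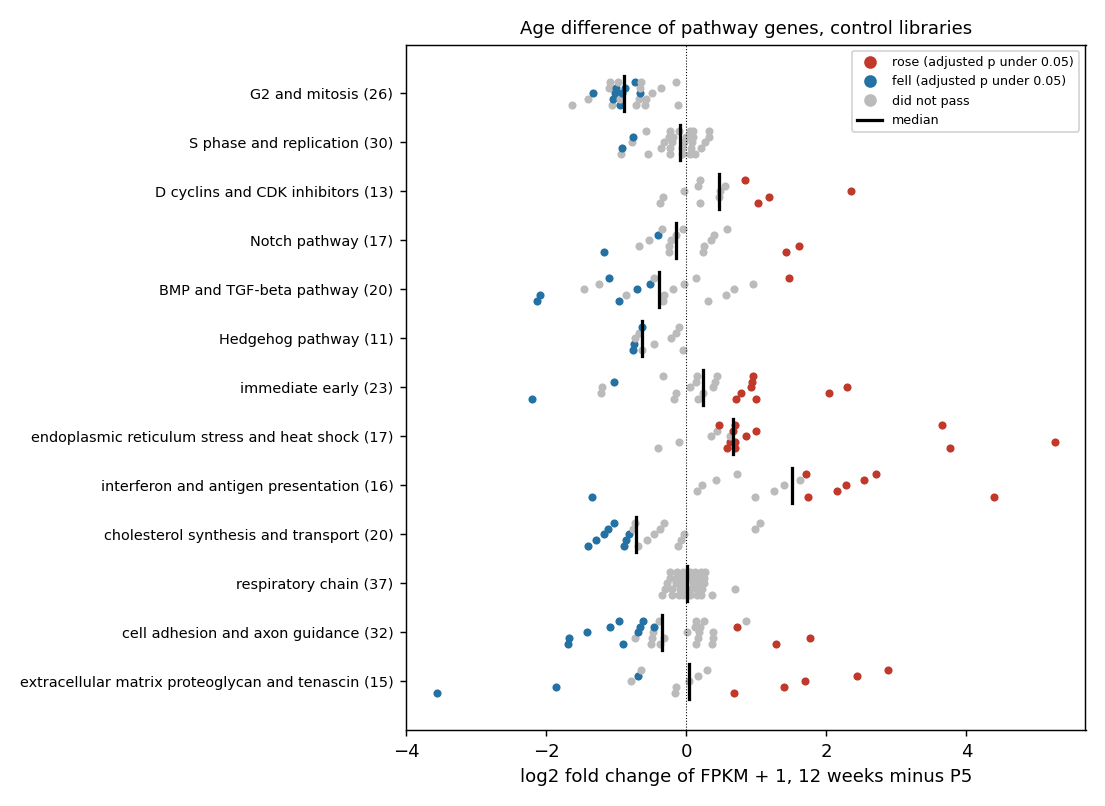
Log2 fold change, 12 weeks minus P5, of each tested member of 13 pathway lists, with red for genes that rose, blue for genes that fell, grey for those that did not pass and a black bar at the median. All 26 mitotic genes lie below 0, 12 of 17 stress and chaperone genes rose, and no respiratory chain gene passed.

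Chaperone and stress genes rose. Of 18 listed endoplasmic reticulum stress and heat shock genes, 17 were tested, 12 rose, none fell and 5 did not pass, with a median of 0.67. With 1 P5 library left out, 4 or 5 rose. In the VPA libraries 10 of 17 rose between the ages. Hspb1, the small heat shock protein Hsp27, which vascular and glial cells make, was measured at 0.244, 0.326 and 0.482 FPKM at P5 and 52.1, 55.7 and 44.7 FPKM at 12 weeks. The adult libraries were close to each other, and the change was 5.26 ± 0.17 (adjusted p = 2.6e-05). The inducible Hsp70 genes Hspa1a and Hspa1b, near-identical copies between which reads could be split, were measured at 1.34, 1.61 and 1.71 FPKM at P5 and 53, 23.9 and 30.1 FPKM at 12 weeks and at 1.59, 1.75 and 1.61 FPKM at P5 and 56.7, 21.3 and 27.5 FPKM at 12 weeks, with changes of 3.77 ± 0.3 (adjusted p = 0.000677) and 3.65 ± 0.35 (adjusted p = 0.00135). Adult replicate 1 was the highest for both.

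Smaller rises were seen in chaperones of the endoplasmic reticulum. Hspa5, the chaperone BiP, was measured at 152, 159 and 155 FPKM at P5 and 299, 294 and 254 FPKM at 12 weeks, a change of 0.85 ± 0.1 (adjusted p = 0.00341). Hsp90b1, the chaperone GRP94, was measured at 149, 150.0 and 148 FPKM at P5 and 257, 219 and 253 FPKM at 12 weeks, and Calr, the calcium-binding chaperone calreticulin, at 260.5, 264 and 272 FPKM at P5 and 369, 465 and 398 FPKM at 12 weeks. They changed by 0.7 ± 0.1 (adjusted p = 0.00722) and 0.62 ± 0.12 (adjusted p = 0.0186), and both calls were lost without any 1 P5 library. Each carries the endoplasmic reticulum stress response element, CCAAT and CCACG with 9 bases between them on either strand, in its promoter window, as did Pdia6, a disulfide isomerase that did not pass (0.35 ± 0.11 (adjusted p = 0.0927)). Of all genes with a window, 0.137% held it, and of the 10 genes of the list that rose and had a window, 3 did. The heat shock element, GAA, TTC and GAA with 2 bases between neighbours, was in 1 of the 16 windows of the list, that of Hsph1, and in 0.662% of all. The 250 bases before the start are shown with the stress element in capitals, for Hspa5 at chr2:34771840-34772089, plus strand, for Hsp90b1 at chr10:86705445-86705694, minus strand and for Calr at chr8:84846932-84847181, minus strand.
Hspa5: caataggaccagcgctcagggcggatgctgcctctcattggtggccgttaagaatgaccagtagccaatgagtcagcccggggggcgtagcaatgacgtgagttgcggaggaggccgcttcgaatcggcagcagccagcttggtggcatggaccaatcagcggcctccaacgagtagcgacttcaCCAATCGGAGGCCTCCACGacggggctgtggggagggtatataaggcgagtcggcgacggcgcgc
Hsp90b1: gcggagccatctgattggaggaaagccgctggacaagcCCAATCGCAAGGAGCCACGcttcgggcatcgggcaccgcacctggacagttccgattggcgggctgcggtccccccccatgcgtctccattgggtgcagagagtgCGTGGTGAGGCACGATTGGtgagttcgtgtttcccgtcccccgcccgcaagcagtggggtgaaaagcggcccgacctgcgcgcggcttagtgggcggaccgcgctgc
Calr: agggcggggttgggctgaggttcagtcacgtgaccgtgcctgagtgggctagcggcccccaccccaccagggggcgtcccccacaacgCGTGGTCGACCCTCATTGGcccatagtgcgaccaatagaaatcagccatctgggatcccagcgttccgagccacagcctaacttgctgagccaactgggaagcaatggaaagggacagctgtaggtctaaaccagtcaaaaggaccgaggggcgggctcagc
Hsp90b1 holds the element at 2 places, on opposite strands.

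Immediate early genes, which neurons and other cells switch on within minutes of stimulation or stress, were mixed. Of 24 listed, 23 were tested, 8 rose, 2 fell and 13 did not pass, with a median of 0.23. Between 3 and 5 rose without 1 P5 library, and 4 fell without adult replicate 1. Fosb was measured at 37.5, 39.4 and 30.6 FPKM at P5 and 78.7, 64.2 and 73.7 FPKM at 12 weeks, a change of 0.99 ± 0.14 (adjusted p = 0.0055), and Klf2, a factor also known from endothelium, at 3.53, 3.89 and 3.24 FPKM at P5 and 19.9, 21.9 and 12.4 FPKM at 12 weeks, a change of 2.04 ± 0.24 (adjusted p = 0.00294). Fos was measured at 627, 733 and 669 FPKM at P5 and 655, 466 and 496 FPKM at 12 weeks and was high at both ages, with a difference of -0.34 ± 0.16 (adjusted p = 0.223). The nuclear receptor genes Nr4a3 and Nr4a1 went the other way. Nr4a3 was measured at 21.1, 25 and 26 FPKM at P5 and 5.79, 3.43 and 4.31 FPKM at 12 weeks, a change of -2.2 ± 0.2 (adjusted p = 0.00118). Nr4a1 changed by -1.03 ± 0.2 (adjusted p = 0.0202), a call lost without any 1 P5 library. In the VPA libraries 18 of 23 listed genes rose between the ages and 1 fell, with a median of 2.01. The age difference itself differed between control and VPA for 11 of the list, against 75 of all 14200 genes tested for it (0.528%). With array quality weights, 4 genes in all were called in that test. Summed, the list held 1912, 2208 and 2097 FPKM at P5 in control and 750, 829 and 962 FPKM at P5 in VPA. At 12 weeks the sums were 3161, 2397 and 2336 FPKM in control and 3448, 3340 and 3613 FPKM in VPA.

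Interferon and antigen presentation genes were higher in adults. Of 18 listed, 16 were tested, 7 rose, 1 fell and 8 did not pass, with a median of 1.5. With 1 library left out 5 to 11 rose, 11 of them without adult replicate 1. Ifi27, an interferon-induced mitochondrial protein, was measured at 3.02, 2.74 and 3.67 FPKM at P5 and 75.8, 75.2 and 110.0 FPKM at 12 weeks, a change of 4.39 ± 0.19 (adjusted p = 7.23e-05). B2m, the light chain of class I molecules, was measured at 45.5, 39.7 and 46.5 FPKM at P5 and 157, 215 and 229 FPKM at 12 weeks, a change of 2.15 ± 0.16 (adjusted p = 0.000578), and the class I heavy chain gene H2-K1 at 7.68, 8.66 and 8.09 FPKM at P5 and 37.9, 47.6 and 45 FPKM at 12 weeks, a change of 2.28 ± 0.13 (adjusted p = 0.000224). Ifitm3, a membrane protein that blocks virus entry and is made by endothelial cells, changed by 2.71 ± 0.23 (adjusted p = 0.000915). Irf1, an interferon regulatory factor, was measured at 19, 21.8 and 18.6 FPKM at P5 and 9.65, 8.76 and 4.21 FPKM at 12 weeks, a change of -1.35 ± 0.28 (adjusted p = 0.025) lost without any 1 P5 library. Endothelial and pericyte sums, given above, were higher in the same libraries, and their part in these rises was not tested.

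The core of the interferon-stimulated response element, GAAA and GAAA with 2 bases between them on either strand, was found in 7 of 16 promoter windows of this list and in 3.99% of all genes with a window. Of the 6 genes that rose and had a window, 4 held it. B2m and Ifit3, an interferon-induced protein measured at 0.0715, 0.159 and 0.251 FPKM at P5 and 3.75, 5.52 and 8.89 FPKM at 12 weeks, are shown with the element in capitals, at chr2:122147437-122147686, plus strand and at chr19:34583279-34583528, plus strand.
B2m: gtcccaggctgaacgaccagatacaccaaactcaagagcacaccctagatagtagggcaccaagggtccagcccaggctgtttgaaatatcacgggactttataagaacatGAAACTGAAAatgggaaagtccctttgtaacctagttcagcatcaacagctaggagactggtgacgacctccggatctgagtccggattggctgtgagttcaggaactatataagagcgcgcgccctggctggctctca
Ifit3: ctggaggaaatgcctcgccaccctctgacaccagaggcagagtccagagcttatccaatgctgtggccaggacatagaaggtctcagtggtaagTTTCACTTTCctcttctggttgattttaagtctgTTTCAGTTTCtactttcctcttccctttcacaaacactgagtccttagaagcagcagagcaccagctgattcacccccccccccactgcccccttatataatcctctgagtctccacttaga
Ifit3 changed by 2.54 ± 0.32 (adjusted p = 0.00389) and was below 1 FPKM in all P5 libraries.

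Cholesterol synthesis genes were lower in adults. Of 20 genes of cholesterol synthesis and transport, all tested, 8 fell, none rose and 12 did not pass, with a median of -0.72. With 1 P5 library left out 3 fell, and without adult replicate 3 5 fell. The enzyme gene Hmgcs1, which feeds the mevalonate pathway, was measured at 151, 152 and 139.7 FPKM at P5 and 56.9, 53.5 and 55 FPKM at 12 weeks, close to even within each age, with a change of -1.4 ± 0.088 (adjusted p = 0.000272). Idi1, an isomerase of the same pathway, changed by -1.29 ± 0.15 (adjusted p = 0.00294). Apoe, the lipid carrier of glia, was measured at 921, 879.7 and 736 FPKM at P5 and 1012, 2452 and 1833 FPKM at 12 weeks, a difference of 0.98 ± 0.33 (adjusted p = 0.0988). The sterol regulatory element letters, ATCAC and CCAC with 1 base between them, were in none of the 13 windows of this list and in 0.27% of all. In the VPA libraries 9 of 20 genes fell between the ages.

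Among genes of energy metabolism and translation, none of 37 respiratory chain genes passed in the limma fit, with 1 at an unadjusted p under 0.05 and a median of 0.00598, and 3 rose without adult replicate 1. Only 1 of 75 ribosomal protein genes rose, though 21 rose without adult replicate 1. Of 20 glycolysis genes, 19 were tested, 4 rose and 1 fell, Slc2a1 among the rises, and 9 rose without adult replicate 1. Of 20 genes of fatty acid oxidation and lipid droplets, 3 rose and 2 fell, where 14.3% of all tested genes were called in either direction. With 1 P5 library left out, 1 glycolysis gene and 1 of these lipid genes rose. Acsl3, an enzyme that activates fatty acids, was measured at 19.4, 20.4 and 22.5 FPKM at P5 and 69.1, 67.4 and 73.6 FPKM at 12 weeks, a change of 1.71 ± 0.1 (adjusted p = 0.000239). Fabp5, a fatty acid-binding protein of progenitors, was measured at 275, 248 and 294 FPKM at P5 and 125, 128 and 169 FPKM at 12 weeks, a change of -0.96 ± 0.15 (adjusted p = 0.00845) lost without P5 replicate 1 or 3.

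Among chromatin regulators there were more falls than rises. Of 30, 5 fell and 1 rose, against 5.5% and 8.85% of all tested genes, with 1 fall left without any 1 P5 library. Ezh2, the methyltransferase of the Polycomb complex, was measured at 69.6, 68.7 and 71.5 FPKM at P5 and 36.3, 39.8 and 44.3 FPKM at 12 weeks, a change of -0.79 ± 0.11 (adjusted p = 0.00501). Of 12 tested DNA methylation genes 2 fell and 1 rose, with Dnmt3a, a de novo methyltransferase, at 14.7, 16.5 and 15 FPKM at P5 and 10.1, 9.54 and 9.54 FPKM at 12 weeks and a change of -0.61 ± 0.13 (adjusted p = 0.0254), lost without any 1 P5 library. Among 15 tested imprinted genes 2 rose and 2 fell. Grb10, an imprinted adaptor protein that restrains growth, was measured at 12, 11.1 and 10.7 FPKM at P5 and 2.51, 3.03 and 4.22 FPKM at 12 weeks, a change of -1.55 ± 0.2 (adjusted p = 0.0049).

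Among adhesion and guidance genes there were more falls than rises. Of 32, all tested, 10 fell, 3 rose and 19 did not pass, with a median of -0.35. With 1 P5 library left out 4 fell and 1 rose, and 6 rose without adult replicate 2. Cntn2, an axonal adhesion molecule, was measured at 49.6, 53.8 and 50.9 FPKM at P5 and 15.2, 14.8 and 15.6 FPKM at 12 weeks, a change of -1.69 ± 0.099 (adjusted p = 0.000224). The netrin receptor gene Dcc was measured at 37, 35.3 and 34.6 FPKM at P5 and 19, 16.4 and 13.7 FPKM at 12 weeks, a change of -1.09 ± 0.14 (adjusted p = 0.00467), whereas Ntn1, its ligand netrin, was measured at 6.73, 5.94 and 5.14 FPKM at P5 and 19.1, 25.4 and 23.5 FPKM at 12 weeks and rose by 1.77 ± 0.17 (adjusted p = 0.00148). The repellent Slit2 changed by -1.67 ± 0.19 (adjusted p = 0.00292). Of 15 tested matrix proteoglycan and tenascin genes, 5 rose and 3 fell, and 2 or 3 rose without 1 P5 library. With Tnc, the proteoglycan gene Ncan was lower, measured at 217, 192 and 175 FPKM at P5 and 64.1, 49.1 and 46.8 FPKM at 12 weeks, a change of -1.86 ± 0.15 (adjusted p = 0.00076). Gpc5, a membrane-anchored heparan sulfate proteoglycan, was higher, measured at 4.28, 4.68 and 3.7 FPKM at P5 and 24.6, 33.2 and 24.4 FPKM at 12 weeks, a change of 2.44 ± 0.18 (adjusted p = 0.000532).

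Receptor and channel genes were called in both directions. Of 26 tested GABA and glutamate receptor genes 3 rose and 3 fell, with 5 or 6 falls without adult replicate 2 or 3, and of 27 potassium, sodium and calcium channel genes 3 rose and 2 fell, where 14.3% of all tested genes were called in either direction. With 1 P5 library left out, no channel gene and at most 1 receptor gene were called. Gria3, an AMPA receptor subunit, was measured at 6.14, 7.55 and 5.74 FPKM at P5 and 18.9, 31.2 and 16 FPKM at 12 weeks, a change of 1.57 ± 0.26 (adjusted p = 0.0111) lost without P5 replicate 1 or 3. Grm3, a metabotropic glutamate receptor of glia, was measured at 27.8, 29.1 and 20.7 FPKM at P5 and 9.09, 13.4 and 9.65 FPKM at 12 weeks, a change of -1.2 ± 0.2 (adjusted p = 0.0119) lost without P5 replicate 1 or 2.

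The same age difference was measured in the VPA libraries, which are separate from the controls. There 1447 of 13450 tested genes rose (10.8%) and 1113 fell (8.28%). Of the 1192 rises in control, 674 (56.5%) also rose in VPA, which was 46.6% of the rises there. Of the 741 falls, 324 (43.7%) also fell, which was 29.1% of the falls in VPA. Calls in opposite directions were 3 rises in control that fell in VPA and 5 falls that rose. Of the control calls, 218 rises and 122 falls were of genes that reached 1 FPKM in the libraries of only 1 age. Where such a gene had the same pattern in VPA, the filter set its direction in both fits. The overlap is to that extent no separate support. Under VPA, Tnc changed by -3.57 ± 0.19 (adjusted p = 0.000156), Fabp7 by -2.28 ± 0.094 (adjusted p = 6.21e-05), Aqp4 by -3.03 ± 0.17 (adjusted p = 0.000217), Gjb6 by 2.25 ± 0.43 (adjusted p = 0.015) and Ly6c1 by 5.45 ± 0.48 (adjusted p = 0.00098), each in the direction seen in control. In a fit of both pairs of groups, the age difference itself differed between control and VPA for 75 of 14200 genes (0.528%). The VPA libraries of P5 had Xist at 1.93, 20 and 0.149 FPKM and Ddx3y at 20.3, 19.1 and 20.8 FPKM. P5 control replicates 1 and 2, described above, had high Xist and almost no Ddx3y. P5 control replicate 3 had Xist at 2.65 FPKM and Ddx3y at 22 FPKM, so these transcripts did not fully divide the 2 groups. The part of sex in the difference between control and VPA was not tested. Each VPA library of 12 weeks held both transcripts.

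**Figure D5:**
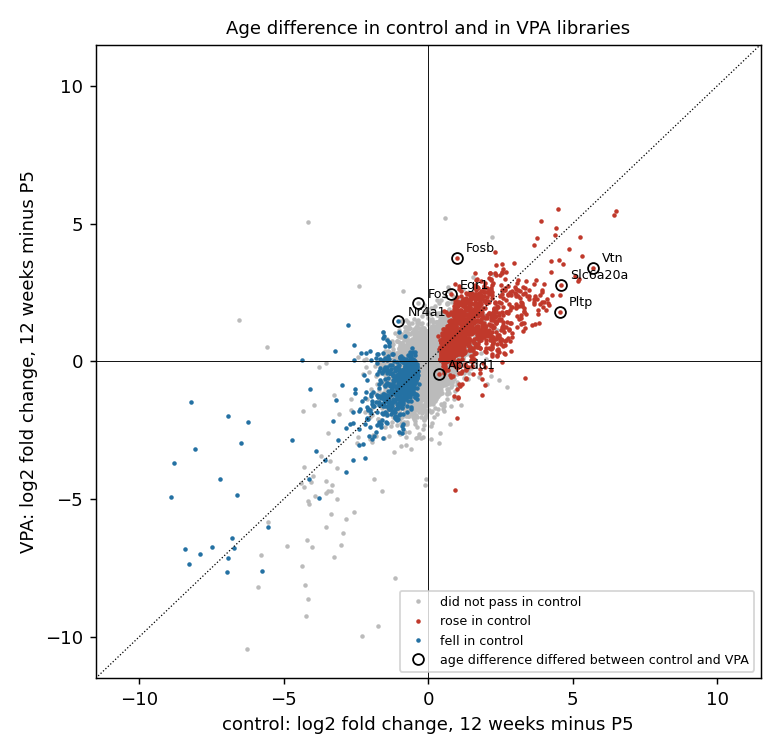
Log2 fold change between the ages in control libraries (horizontal axis) and in VPA libraries (vertical axis) for the 13144 genes tested in both, coloured by the control call, with a dotted line of equality. The 8 circled genes are named genes whose age difference differed between control and VPA; Vtn, Slc6a20a, Pltp and Apcdd1 lie below the line and Fos, Fosb, Egr1 and Nr4a1 above it.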

How the data were processed

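GFP-sorted cells gave 1 deposited table per library, with 1 FPKM value for each of 24322 gene symbols. The submitters' processing notes list Bowtie2, Cuffdiff, Cufflinks, TopHat and the build mm10, with no role or version. What each did is not given in the sources used here. Headers at 12 weeks name FPKM as the unit of the deposited values. The P5 headers name only the sample, and FPKM was inferred from the same symbols and range. These values are not counts, and low values gave no reliable depth.

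Groups came from the labels. With limma 3.58.1 in R 4.3.3, log2(FPKM + 1) was fitted with an intensity trend over the 6 control libraries, over genes of at least 1 FPKM in at least 3 libraries, and p-values were adjusted by Benjamini-Hochberg over all tested genes with a threshold of 0.05. VPA libraries were fitted the same way, and the interaction in all 12. The fit was tested on simulated data. A first simulation, with the spread observed for each gene, gave a share of false calls well above the threshold. A second, with the spread smoothed over genes of like level, gave a share below it and was adopted after the first had failed, so control of false calls was shown only for that spread. In the second, changes of 1 log2 unit were seldom recovered. Alternatives were a pseudocount of 0.1, 3 other filters, 2 scalings, removal of small RNA genes, array weights, a replicate block, no trend, all 21 libraries, and each library left out.

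Named genes were, in each direction, the 15 largest called changes with groups that did not overlap and a higher mean of at least 10 FPKM, leaving out small RNA genes and numbered gene models. To these were added the first 2 genes of each of 41 lists, up to 3 called genes per list and direction with a higher mean of at least 5 FPKM, and Cxcr4. Others, among them Sox2, Emx2, Vim, Sox9, Hsp90b1, Calr, Pdia6, Cdk1, Mobp, Aif1 and Apoe, were chosen after their values were seen. The 6 motifs reported were picked, also after values were seen, from a wider search. The comparison and the lists were chosen with earlier results of these data known. Gene positions are from GENCODE vM21 and promoter windows, 250 bases before to 50 after a start, from RefSeq, both on GRCm38, the build called mm10; 23185 of 24322 symbols matched 1 GENCODE gene. EGFP was not analysed here, and some genes that the rule names are not reported here.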

Additional observations from a re-analysis of the deposited data

Results flagged for a closer look

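For 8 named genes the difference between 12 weeks and P5 was not the same in control and VPA libraries, by the test of the difference itself (control change minus VPA change, limma, Benjamini-Hochberg over 14200 genes). Among immediate early genes this value was -2.45 ± 0.24 (adjusted p = 0.00165) for Fos, -2.77 ± 0.28 (adjusted p = 0.00218) for Fosb, -2.49 ± 0.34 (adjusted p = 0.00977) for Nr4a1 and -1.65 ± 0.23 (adjusted p = 0.0112) for Egr1, all on the log2 scale. The log2 fold change of Fos was -0.34 in control, where it did not pass, and 2.11 in VPA. Its mean was 676 FPKM at P5 and 539 FPKM at 12 weeks in control, and 186.5 and 799 FPKM in VPA. Nr4a1 changed by -1.03 in control and 1.46 in VPA, which are opposite directions. Fosb changed by 0.99 and 3.76, and Egr1 by 0.78 and 2.44. The Wnt inhibitor gene Apcdd1 changed by 0.38 in control and -0.46 in VPA, a difference of 0.83 ± 0.14 (adjusted p = 0.0346). The control calls of Nr4a1, Egr1 and Apcdd1 were lost without any 1 P5 library, and that of Apcdd1 also without adult replicate 2 or 3. The control rise was larger for the pericyte gene Vtn by 2.31 ± 0.41 (adjusted p = 0.0346), for the transporter gene Slc6a20a by 1.8 ± 0.32 (adjusted p = 0.0356) and for the lipid transfer gene Pltp by 2.75 ± 0.52 (adjusted p = 0.0487). Vtn rose by 5.71 in control and 3.4 in VPA, Slc6a20a by 4.59 and 2.79, and Pltp by 4.56 and 1.81. With array quality weights the interaction was called for 4 genes in all. Xist and Ddx3y, given above, also set P5 control replicates 1 and 2 apart from the VPA libraries of P5, but not P5 control replicate 3. In that replicate Fos was at 669 FPKM, against 627 and 733 FPKM in P5 control replicates 1 and 2. The part of sex was not tested.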

How the results depend on the processing

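No called gene named under the rule changed direction under any of the 17 alternatives, and 72 of 157 kept their call under every alternative in which they were tested. Without P5 replicates 1, 2 and 3, 79, 69 and 74 of the 154 still tested lost it. Leaving out 1 library at a time gave 411 to 1563 control rises and 55 to 1534 control falls, against 1192 and 741. It gave 541 to 1844 rises and 187 to 1754 falls in VPA, against 1447 and 1113, and 17 to 433 interaction genes, against 75. With a block for replicate number, 772 genes rose and 313 fell in control, 905 rose and 593 fell in VPA, and 25 interactions were called. Deviations of control libraries with the same number correlated at 0.0994, 0.0279 and 0.0117, so the numbers were not taken to pair the libraries, and 2 of the 3 adult libraries did not correlate best with their own number. Array quality weights gave 4 interaction genes; the cause was not tested for either setting. All other alternatives kept these counts within 1.5 times. With no filter, 1083 genes rose and 1086 fell in control, of 18742 tested. Depth is unknown, so no limit can be set for genes listed at 0.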

Other observations

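Small RNA genes, which were left out of the named genes, fell more often than they rose. Of 127 tested, 40 fell and 3 rose, against 701 falls and 1189 rises among the 13348 other tested genes. The set was taken by the start of the symbol, and symbols starting Snhg, which name host genes of small RNAs, are included. Small RNAs themselves are short and mostly not polyadenylated.

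The 8 genes called in opposite directions in control and VPA were named after their values were seen. Apcdd1, Fam212a and Islr rose in control, by 0.38, 1.01 and 1.0 on the log2 scale, and changed by -0.46, -2.07 and -0.99 in VPA. All 3 control calls were lost without any 1 P5 library, that of Fam212a also without adult replicate 3, and that of Apcdd1, at an adjusted p of 0.0477, also without adult replicate 2 or 3. The matrix protease gene Adamts1 changed by -1.01 ± 0.16 (adjusted p = 0.00962) in control, at 18.4, 21.9 and 20.7 FPKM at P5 and 8.03, 9.96 and 11 FPKM at 12 weeks, and changed by 1.07 ± 0.28 (adjusted p = 0.0433) in VPA. Its control call was lost without any 1 P5 library. Nr4a1, Cyb5d1 and Eldr changed by -1.03, -0.8 and -1.57 in control and by 1.46, 0.91 and 1.07 in VPA, and the control calls of Nr4a1 and Cyb5d1 were lost without any 1 P5 library. The gene model 0610040B10Rik was listed at 0 in all adult control libraries.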
